A study of Rattus norvegicus with 9 samples.

Results

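The lysyl oxidase family of the rat, Lox, Loxl1, Loxl2, Loxl3 and Loxl4, was followed in RNA of tibia. The 5 genes were chosen by symbol, and each matched 1 of the 23768 rows of a table of raw read counts. The libraries came from male Sprague Dawley rats in 3 groups of 3, namely PMLGH (replicates 2, 3 and 4), GelMA (replicates 2, 3 and 4) and Model (replicates 1, 2 and 5). GelMA commonly stands for gelatin methacryloyl, a modified gelatin that can be set into a hydrogel. PMLGH is not spelled out by the labels, nor is what the Model animals underwent or which of it the PMLGH and GelMA animals shared. The study's title speaks of a peptide made to act like LOX and of healing of diabetic bone, so the family holds the enzyme after which the peptide is named. Age, time of sampling, and whether each replicate is another animal are not stated, and p-values may therefore measure technical spread in part.

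Lysyl oxidases are copper-dependent enzymes of the extracellular matrix. They oxidise lysine and hydroxylysine side chains of collagen and elastin to aldehydes, which then condense into the covalent cross-links that make fibrils insoluble and strong. In bone these cross-links form in collagen laid down by osteoblasts, and loss of Lox in mice weakens arteries, skin and bone. Lox and Loxl1 are made as proenzymes and cut outside the cell, whereas Loxl2, Loxl3 and Loxl4 carry scavenger receptor domains before the catalytic part.

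Total counts ran from 36856241 to 37166383 in PMLGH, 35816685 to 36211238 in GelMA and 34571478 to 35620680 in Model. Osteoblast markers were plentiful in every library: Bglap, Ibsp, Alpl, Sp7, Runx2, Dmp1 and Phex summed to 2287 to 2837 CPM (counts scaled to a fixed library total) in PMLGH, 2956 to 3035 in GelMA and 1338 to 1924 in Model. Among Model libraries, Model 2 was the odd one: gene by gene, its mean chi-square was 33.0 against Model 1 and 27.7 against Model 5, where Model 1 and Model 5 had 15.7. No batch is labelled, so batch and group cannot be told apart here. In tissue RNA, fewer cells of a type and less RNA per cell cannot be told apart either.

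All 5 genes were higher in PMLGH than in Model and higher in GelMA than in Model, and Lox and Loxl2 were also higher in PMLGH than in GelMA. PMLGH against Model called 27.5% of the 16816 genes tested, 15.7% higher and 11.9% lower. GelMA against Model called 22.6%, with 12.7% higher and 9.88% lower, and PMLGH against GelMA called 3.44%, with 1.8% higher and 1.64% lower. The first 2 comparisons share the Model libraries, and the third shares libraries with each of them, so their values stand side by side here and are not counted as separate evidence. A gene was called where edgeR's quasi-likelihood test gave an adjusted p under 0.05. The median log2 fold change was 1.09 for the family and 0.02 for all genes tested in PMLGH against Model, 0.75 and 0.03 in GelMA against Model, and 0.20 and 0.00 in PMLGH against GelMA. Calls in the last comparison numbered 578 in both directions. They moved to 1050 without Model 2, 338 without GelMA 3, 328 without GelMA 4, 373 without PMLGH 2, 303 without PMLGH 3 and 381 without PMLGH 4.

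**Figure D1:**
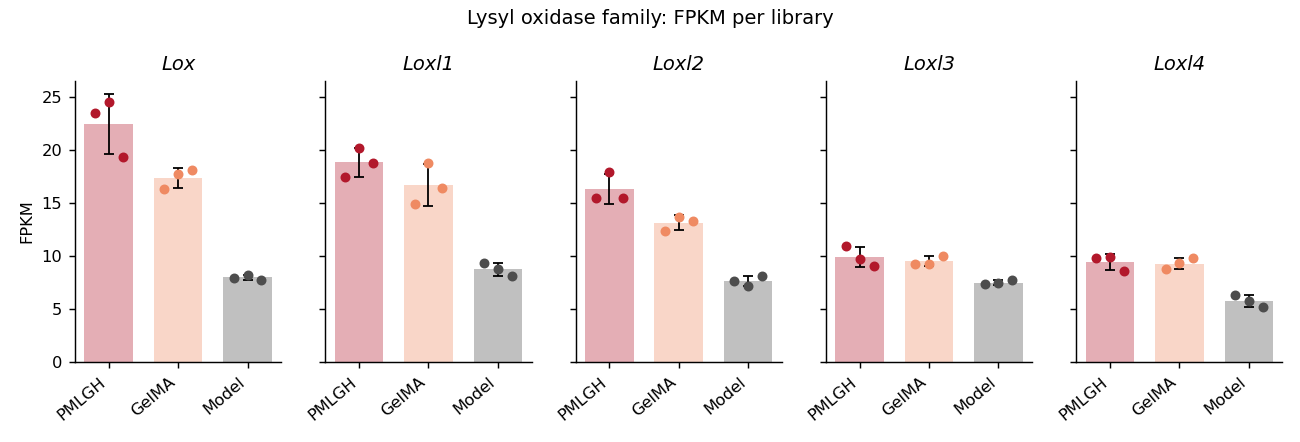
FPKM of each gene (y axis) in the PMLGH, GelMA and Model groups (x axis). Points are single libraries in order of replicate number, bars are means and error bars are SD of 3 libraries. Lox spans 19.3 to 24.6 FPKM in PMLGH and 7.75 to 8.24 in Model, while Loxl3 spans 9.01 to 10.9 in PMLGH and 7.31 to 7.71 in Model.

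Lox, the founding member and the main lysyl oxidase of bone collagen, had 23.5, 24.6 and 19.3 FPKM (fragments scaled to gene length and library total) in PMLGH 2, 3 and 4. It had 16.3, 17.7 and 18.1 FPKM in GelMA 2, 3 and 4, and 7.92, 8.24 and 7.75 FPKM in Model 1, 2 and 5. No library of one group reached into another, although PMLGH 4 lay closer to the GelMA libraries than to the other PMLGH libraries. In PMLGH against Model, Lox rose 2.79-fold, a log2 fold change of 1.48 ± 0.08 (approximate SE, edgeR adjusted p = 3.8e-09). In GelMA against Model it rose 2.12-fold, or 1.08 ± 0.08 on the log2 scale (edgeR adjusted p = 1.8e-07). PMLGH against GelMA gave a further 1.32-fold, or 0.40 ± 0.07 (edgeR adjusted p = 0.0068). This last call was lost without PMLGH 3 (log2 fold change 0.33, edgeR adjusted p = 0.054) and in limma on both FPKM scales (adjusted p = 0.068 each). Over all alternatives tried, the adjusted p for Lox lay between 1.2e-04 and 0.068.

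Of the 2637 genes called higher in PMLGH against Model, 259, Lox included, rose at least as much as Lox. That places it in the upper 9.82% of these genes, with Loxl1 at 17.9%, Loxl2 at 18.1%, Loxl4 at 37.8% and Loxl3 at 72.6%. Lox therefore stood with the larger rises, and Loxl3 with the smaller ones.

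Loxl1, best known for the upkeep of elastic fibres, had 17.5, 20.2 and 18.8 FPKM in PMLGH 2, 3 and 4. It had 14.9, 18.8 and 16.4 FPKM in GelMA 2, 3 and 4, against 9.37, 8.74 and 8.14 FPKM in Model 1, 2 and 5. PMLGH and GelMA lay clear of Model but overlapped each other, since GelMA 3 exceeded PMLGH 2. Loxl1 rose 2.13-fold in PMLGH against Model (1.09 ± 0.09 on the log2 scale, edgeR adjusted p = 5.7e-07) and 1.86-fold in GelMA against Model (0.89 ± 0.09, adjusted p = 7.1e-06). PMLGH against GelMA gave 0.20 ± 0.09, with a 95% interval of 0.01 to 0.39 before adjustment, and did not pass (edgeR adjusted p = 0.28).

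Loxl2, which cross-links basement membrane collagen among other substrates, had 15.5, 17.9 and 15.5 FPKM in PMLGH 2, 3 and 4. The GelMA libraries had 12.4, 13.7 and 13.3 FPKM, and Model 1, 2 and 5 had 7.60, 7.15 and 8.06 FPKM. As for Lox, the 3 groups did not overlap. Loxl2 rose 2.12-fold in PMLGH against Model (1.09 ± 0.07 on the log2 scale, edgeR adjusted p = 6.3e-08). It rose 1.68-fold in GelMA against Model (0.75 ± 0.07, edgeR adjusted p = 4.4e-06) and 1.26-fold in PMLGH against GelMA (0.34 ± 0.07, adjusted p = 0.015). The last call was lost without GelMA 2, GelMA 4 or PMLGH 3 (edgeR adjusted p = 0.076, 0.069 and 0.10) and in limma on both FPKM scales (adjusted p = 0.077 and 0.080). Its adjusted p lay between 0.0016 and 0.10 among the alternatives.

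Loxl3, a relative needed for palate and spine development in mice, had 10.9, 9.70 and 9.01 FPKM in PMLGH 2, 3 and 4. It had 9.21, 9.24 and 10.0 FPKM in GelMA 2, 3 and 4 and 7.31, 7.43 and 7.71 FPKM in Model 1, 2 and 5. The GelMA values lay within the PMLGH range, and both groups lay above Model. It rose 1.31-fold in PMLGH against Model (0.39 ± 0.08 on the log2 scale, edgeR adjusted p = 0.0024) and 1.24-fold in GelMA against Model (0.30 ± 0.08, adjusted p = 0.014). Without GelMA 4 the second value was 0.25 and did not pass (edgeR adjusted p = 0.082, the highest of its alternatives, of which the lowest was 0.012). PMLGH against GelMA gave 0.08 ± 0.08 (95% interval -0.09 to 0.25, edgeR adjusted p = 0.70).

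In the reference assembly GRCr8, Loxl3 overlaps Htra2, a mitochondrial protease, at one end and lies just beside Dok1, a signalling adaptor, at the other. Whether strand was used in counting is not given in the sources used here, and reads in the overlap could belong to either gene. Neither neighbour passed in PMLGH against Model, with 0.17 ± 0.07 for Htra2 (edgeR adjusted p = 0.078) and 0.06 ± 0.08 for Dok1 (adjusted p = 0.62). Lox overlaps the pseudogene Rps3a-ps12 in that assembly, a symbol with no row among the raw counts. Loxl1, Loxl2 and Loxl4 overlap no other gene of the reference table.

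Loxl4, the remaining relative with scavenger receptor domains, had 9.80, 9.92 and 8.56 FPKM in PMLGH 2, 3 and 4. GelMA 2, 3 and 4 had 8.72, 9.29 and 9.79 FPKM, and Model 1, 2 and 5 had 6.26, 5.73 and 5.18 FPKM. The GelMA values again lay within the PMLGH range, and both groups lay above Model. Loxl4 rose 1.63-fold in PMLGH against Model (0.71 ± 0.08 on the log2 scale, edgeR adjusted p = 1.4e-05) and 1.58-fold in GelMA against Model (0.66 ± 0.08, adjusted p = 4.0e-05). PMLGH against GelMA gave 0.05 ± 0.08 (95% interval -0.12 to 0.22, edgeR adjusted p = 0.83).

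**Figure D2:**
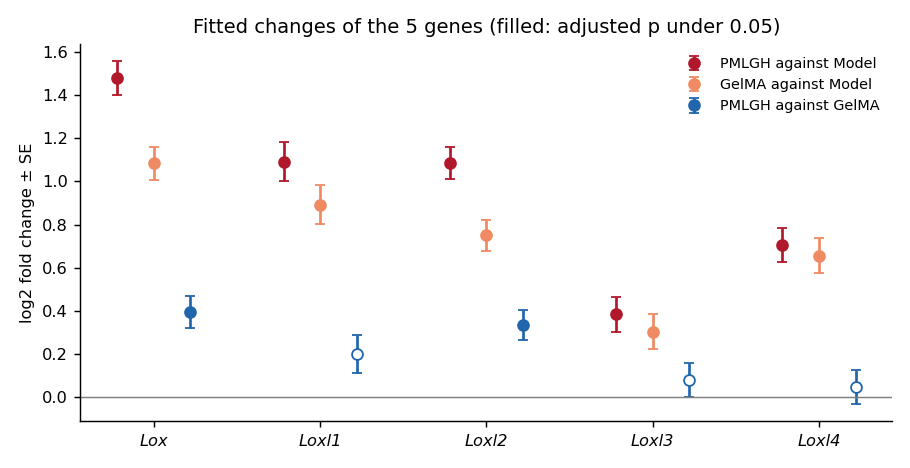
Log2 fold change of each gene (y axis, ± approximate SE) for the 3 comparisons between groups. Filled points have an edgeR adjusted p under 0.05: all 5 genes in each comparison with Model, and Lox (0.40) and Loxl2 (0.34) in PMLGH against GelMA.

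None of the 5 genes overlapped between PMLGH and Model, or between GelMA and Model. The share of all tested genes without overlap was 39.4% and 36.6% in these comparisons, so a lack of overlap alone was common. Between PMLGH and GelMA, Lox and Loxl2 did not overlap, where 23.7% of all tested genes did not.

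The order of the genes by FPKM, a level per length of gene, differed between groups. In PMLGH it was Lox (22.5 ± 2.8 FPKM, SD, n = 3), Loxl1 (18.8 ± 1.4), Loxl2 (16.3 ± 1.4), Loxl3 (9.88 ± 0.97) and Loxl4 (9.43 ± 0.75). Neighbours in that order overlapped in range except Loxl2 and Loxl3. In GelMA it was Lox (17.3 ± 0.96), Loxl1 (16.7 ± 2.0), Loxl2 (13.1 ± 0.68), Loxl3 (9.49 ± 0.47) and Loxl4 (9.27 ± 0.53), where Loxl1 and Loxl2 also did not overlap. In Model the order was Loxl1 (8.75 ± 0.61), Lox (7.97 ± 0.25), Loxl2 (7.60 ± 0.46), Loxl3 (7.48 ± 0.21) and Loxl4 (5.72 ± 0.54). The first 4 genes of the Model order each overlapped their neighbours, and Loxl4 lay below them all. The spread between Lox and Loxl3 was small in Model and wide in PMLGH and GelMA.

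Summed over the family, FPKM were 76.9 ± 5.6 in PMLGH, 65.9 ± 3.9 in GelMA and 37.5 ± 0.83 in Model (SD, n = 3). The share of Lox in that sum was 30.4%, 29.8% and 27.1% in PMLGH 2, 3 and 4. It was 26.5%, 25.7% and 26.8% in GelMA 2, 3 and 4, against 20.6%, 22.1% and 21.0% in Model 1, 2 and 5. No group overlapped another in this share, which was highest in PMLGH. The share of Loxl3 ran the other way against Model, with 11.8% to 14.2% in PMLGH, 13.4% to 15.0% in GelMA and 19.0% to 20.9% in Model. PMLGH and GelMA overlapped in the Loxl3 share. The share of Loxl4 was 12.04% to 12.7% in PMLGH, below and clear of 13.5% to 14.5% in GelMA and 14.1% to 16.3% in Model, which overlapped each other. Shares of Loxl1 and Loxl2 overlapped between all 3 groups. The depth of these libraries is high for such values, since the smallest count of any of the 5 genes in any library was 690.

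**Figure D3:**
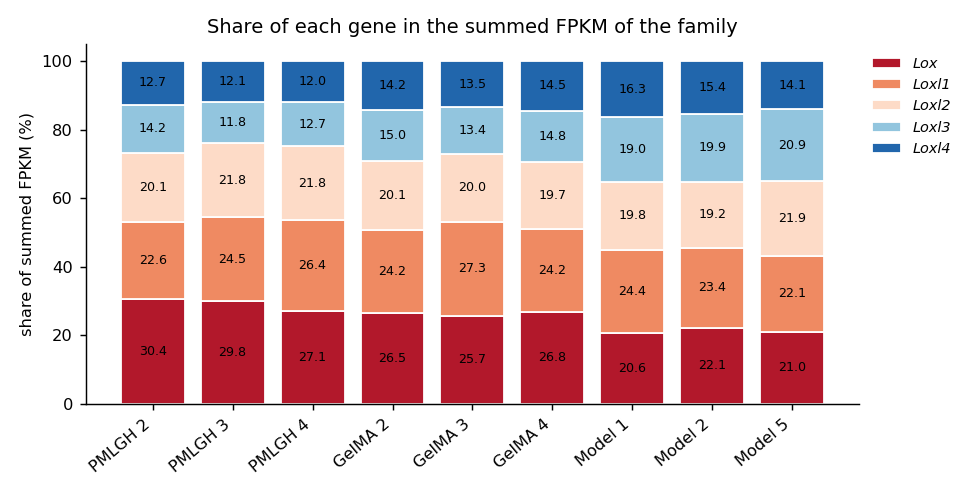
Share of each gene in the summed FPKM of the 5 genes (y axis, %) in each library (x axis), with the share printed in each segment. Lox takes 27.1% to 30.4% in PMLGH, 25.7% to 26.8% in GelMA and 20.6% to 22.1% in Model.

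Whether the genes moved unequally was tested with the log2 ratio of their counts in the same library, which needs no scaling between libraries. The ratios are not per length, so only their differences between groups are read. The exact permutation test over the 9 libraries asked whether the 3 group means differed, for 10 pairs of genes, and 8 pairs passed after Benjamini-Hochberg adjustment. The ratio of Lox to Loxl3 averaged 1.99 ± 0.14 in PMLGH, 1.68 ± 0.06 in GelMA and 0.90 ± 0.07 in Model (SD of 3 libraries each). Its exact permutation p was 0.00357, the smallest that 1680 arrangements allow (adjusted p = 0.0179). The ratio of Lox to Loxl4 averaged 1.07 ± 0.07 in PMLGH, 0.72 ± 0.02 in GelMA and 0.30 ± 0.13 in Model (exact permutation p = 0.00357, adjusted p = 0.0179). For both ratios no group overlapped another. Loxl2 to Loxl3 averaged 1.52 ± 0.20 in PMLGH, 1.26 ± 0.09 in GelMA and 0.81 ± 0.07 in Model (exact permutation p = 0.00714, adjusted p = 0.0238).

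These 3 pairs also passed whichever single library was left out. Over all pairs, 3 to 6 passed when 1 library was left out. The count was 6 without Model 1 or Model 2, 4 without Model 5 or PMLGH 2, 3 without GelMA 2, GelMA 4 or PMLGH 3, and 5 without GelMA 3 or PMLGH 4. Lox to Loxl1 did not pass (adjusted p = 0.0794, exact permutation), with means of 1.33 ± 0.20 in PMLGH, 1.14 ± 0.13 in GelMA and 0.95 ± 0.10 in Model. PMLGH and Model did not overlap in that ratio, which passed without PMLGH 4 (adjusted p = 0.0214, exact permutation) and in no other of the 9 fits with a library left out. Lox to Loxl2 passed (adjusted p = 0.0417, exact permutation), with means of 0.48 ± 0.14 in PMLGH, 0.42 ± 0.04 in GelMA and 0.09 ± 0.13 in Model. It was lost without Model 5, PMLGH 2, PMLGH 3 or any 1 GelMA library, with an adjusted p of up to 0.0774. Loxl1 to Loxl2 did not pass either (adjusted p = 0.429, exact permutation), with means of -0.86 ± 0.06 in PMLGH, -0.72 ± 0.10 in GelMA and -0.86 ± 0.16 in Model. A larger rise of Lox than of Loxl3 and Loxl4 was thus measured within libraries, whichever was left out, while Lox against Loxl1 or Loxl2 depended on single libraries.

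Col1a1, the main chain of bone collagen and a substrate of these enzymes, gave a second yardstick. Its counts are far larger, so the log2 ratios are negative. Col1a1 itself rose by 1.08 ± 0.08 in PMLGH against Model and by 0.92 ± 0.08 in GelMA against Model (edgeR adjusted p = 1.7e-07 and 1.4e-06). Other collagens would give other ratios. In PMLGH against Model, Col4a2 rose by 1.26, Col5a1 by 1.44 and Col3a1 by 2.03, where Lox rose by 1.48. Ratios to these were not tested. Lox to Col1a1 averaged -7.47 ± 0.08 in PMLGH, -7.69 ± 0.06 in GelMA and -7.86 ± 0.10 in Model (SD of 3 libraries each). This passed the exact permutation test (p = 0.00714, adjusted over the 5 ratios p = 0.0179). Lox thus had more counts per Col1a1 count in PMLGH than in Model by 0.39 on the log2 scale, with no overlap, and than in GelMA by 0.22, also with no overlap. GelMA and Model overlapped in this ratio.

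For Loxl1 the ratio to Col1a1 overlapped between all groups and did not pass (-8.80 ± 0.11 in PMLGH, -8.84 ± 0.07 in GelMA and -8.81 ± 0.11 in Model, exact permutation p = 0.914). Loxl2 did not pass either (exact permutation p = 0.275, adjusted p = 0.344), at -7.95 ± 0.06 in PMLGH, -8.11 ± 0.03 in GelMA and -7.94 ± 0.23 in Model. Without Model 2 it did pass (adjusted p = 0.0357, exact permutation). Loxl3 and Loxl4 rose less than Col1a1, and so had fewer counts per Col1a1 count in PMLGH than in Model. The differences were -0.70 and -0.38 on the log2 scale. Their means were -9.46 ± 0.14 and -8.54 ± 0.05 in PMLGH, -9.37 ± 0.12 and -8.42 ± 0.08 in GelMA, and -8.76 ± 0.17 and -8.16 ± 0.12 in Model (exact permutation p = 0.0179 and 0.00714, adjusted p = 0.0298 and 0.0179). Lox, Loxl3 and Loxl4 passed whichever single library was left out.

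**Figure D4:**
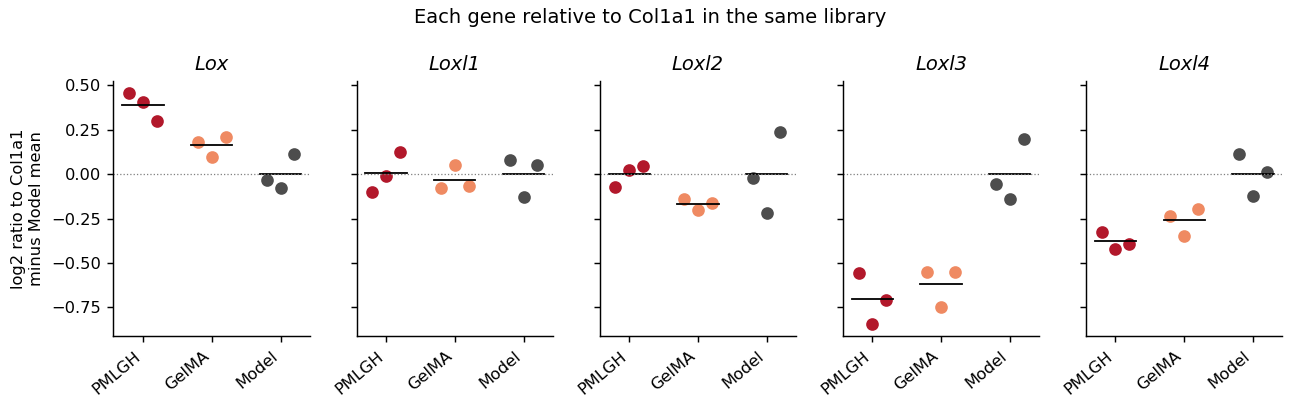
Log2 ratio of each gene to Col1a1 in the same library, after subtraction of the Model mean (y axis), in PMLGH, GelMA and Model. Points are libraries and lines are group means; Lox sits 0.39 above Model in PMLGH, and Loxl3 lies at -0.70.

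Genes that work with the lysyl oxidases were described from 8 lists with 66 symbols, of which 63 were tested. In PMLGH against Model 46 of the 63 rose, 1 fell and 16 did not pass (median log2 fold change 0.70). In GelMA against Model 45 rose, 1 fell and 17 did not pass (median 0.61). In PMLGH against GelMA 11 rose, none fell and 52 did not pass (median 0.17). At an unadjusted p under 0.05 edgeR had 31 higher and 1 lower there, and DESeq2 and limma on log2(FPKM + 1) called 16 and 8 higher and 0 lower after adjustment. The edgeR count of 11 was 18 without Model 2 and 6 without GelMA 4. The shares of all tested genes called higher were 15.7% in PMLGH against Model, 12.7% in GelMA against Model and 1.8% in PMLGH against GelMA.

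Among genes that process or activate the proenzymes, 6 of 8 tested rose in PMLGH against Model, 7 in GelMA against Model and 1 in PMLGH against GelMA. Postn, a matricellular protein known in mice to help Bmp1 cut pro-Lox, averaged 643 CPM in PMLGH, 345 CPM in GelMA and 105 CPM in Model. It was the member that rose in PMLGH against GelMA (0.90 ± 0.12 on the log2 scale, edgeR adjusted p = 4.7e-04). Bmp1 itself, the protease that cuts pro-Lox, rose by 0.62 ± 0.07 in PMLGH against Model (edgeR adjusted p = 8.2e-06) and had 0.14 ± 0.07 in PMLGH against GelMA (adjusted p = 0.31). Pcolce, which enhances cutting of procollagen by Bmp1, rose by 1.15 ± 0.09 in PMLGH against Model, and Adamts2, a procollagen protease, by 1.17 ± 0.07. Fn1, the fibronectin on which such complexes assemble, had 0.22 ± 0.09 (edgeR adjusted p = 0.066).

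Of the 9 collagen substrates, 8 rose in each comparison with Model and 4 in PMLGH against GelMA. Col3a1, the collagen of young tissue, rose by 1.51 ± 0.09 in GelMA against Model and by 0.52 ± 0.09 in PMLGH against GelMA (edgeR adjusted p = 3.2e-08 and 0.0029). The basement membrane chains Col4a1 and Col4a2 rose by 0.51 ± 0.07 and 0.50 ± 0.07 in PMLGH against GelMA. Col5a1, which starts fibrils of type I collagen, rose by 0.36 ± 0.07 there (edgeR adjusted p = 0.012), a call lost without GelMA 2, GelMA 4 or PMLGH 3 (adjusted p = 0.063 to 0.079). The exception in both comparisons with Model was Col2a1, the collagen of cartilage, with -0.08 ± 0.11 in PMLGH against Model (edgeR adjusted p = 0.63) and 0.27 ± 0.11 in GelMA against Model (adjusted p = 0.086).

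Of 11 elastic fibre genes, 9 rose in PMLGH against Model, 10 in GelMA against Model and 1 in PMLGH against GelMA. Eln, the elastin substrate, rose in both comparisons with Model and averaged 18.3 CPM in PMLGH, 22.5 CPM in GelMA and 8.62 CPM in Model. Fbln5, a fibulin that guides elastin assembly and, in mice, binds Loxl1, was the 1 that rose in PMLGH against GelMA (0.40 ± 0.09, edgeR adjusted p = 0.020). Fbln5 no longer passed without GelMA 3, GelMA 4, PMLGH 2 or PMLGH 4 (adjusted p = 0.060 to 0.12). Fbn1, the main microfibril protein, rose by 0.90 ± 0.07 in PMLGH against Model, Mfap5, which sits on microfibrils, by 1.38 ± 0.12, and Emilin1, an elastic fibre glycoprotein, by 0.56 ± 0.05.

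Hydroxylation of telopeptide lysines decides which cross-links the aldehydes form. Of 8 genes of lysine hydroxylation and collagen folding, 7 rose in PMLGH against Model, 6 in GelMA against Model and 2 in PMLGH against GelMA. Plod2, the telopeptide lysyl hydroxylase, rose by 0.69 ± 0.05 in PMLGH against Model and by 0.64 ± 0.05 in GelMA against Model, with 0.05 ± 0.05 between PMLGH and GelMA (edgeR adjusted p = 0.75). Its chaperone Fkbp10 rose by 0.34 ± 0.07 in PMLGH against GelMA (edgeR adjusted p = 0.012), as did the collagen chaperone Serpinh1, by 0.28 ± 0.06 (adjusted p = 0.020). The Fkbp10 call was lost without GelMA 2, GelMA 4, PMLGH 2 or PMLGH 3 (adjusted p = 0.060 to 0.078), and that of Serpinh1 without GelMA 2, GelMA 4, PMLGH 3 or PMLGH 4 (adjusted p = 0.063 to 0.13). Plod1, the hydroxylase of the helix, did not pass in PMLGH against Model (0.11 ± 0.08, edgeR adjusted p = 0.36). All 5 proteoglycans that bind fibrils rose in each comparison with Model, and 1, Lum, rose in PMLGH against GelMA (0.50 ± 0.06).

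Of 8 copper transport genes, 2 rose and 1 fell in PMLGH against Model, 1 rose and 1 fell in GelMA against Model, and none passed in PMLGH against GelMA, where 2 had an unadjusted edgeR p under 0.05 and neither DESeq2 nor limma called any. Over all genes tested, 27.5% were called in PMLGH against Model and 22.6% in GelMA against Model, so these counts lie near the background. Atp7a, the pump that loads copper into lysyl oxidases in the secretory pathway, had 28.0 CPM in PMLGH, 28.1 CPM in GelMA and 24.9 CPM in Model (0.17 ± 0.10 in PMLGH against Model, edgeR adjusted p = 0.22). Its relative Atp7b, best known from liver, fell by 0.51 ± 0.09 in PMLGH against Model and by 0.38 ± 0.09 in GelMA against Model (edgeR adjusted p = 5.7e-04 and 0.0058). Cp, the copper protein ceruloplasmin, rose by 0.49 ± 0.06 in PMLGH against Model and by 0.40 ± 0.06 in GelMA against Model. The other gene that rose in PMLGH against Model was Slc31a2, a copper transporter of inner membranes (0.27 ± 0.09, edgeR adjusted p = 0.039). That call was lost when any 1 of Model 1, Model 5, GelMA 3, GelMA 4 or the PMLGH libraries was left out (adjusted p = 0.054 to 0.14).

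Of 3 other amine oxidases tested, edgeR called none in any comparison. At an unadjusted p under 0.05 it had 1 in each comparison with Model and 0 in PMLGH against GelMA. DESeq2 called none, and limma on log2(FPKM + 1) called 1 in PMLGH against Model. Aoc3, a copper amine oxidase of vessels and fat that shares no sequence family with Lox, had 48.9 CPM in PMLGH, 44.4 CPM in GelMA and 43.6 CPM in Model. Among genes that regulate the family, 9 of 11 rose in PMLGH against Model, 8 in GelMA against Model and 2 in PMLGH against GelMA. Those 2 were Hif1a, the hypoxia factor known to induce Lox (0.42 ± 0.06, edgeR adjusted p = 0.0010), and Ccn2, a growth factor target of TGF-beta (0.45 ± 0.09, adjusted p = 0.0068). The Ccn2 call was lost without GelMA 4 (0.41, edgeR adjusted p = 0.061) or PMLGH 2 (0.37, adjusted p = 0.054). Tgfb1 itself, the classical inducer of Lox, had 149 CPM in PMLGH, 153 CPM in GelMA and 144 CPM in Model and passed in no comparison. The related ligands Tgfb2 and Tgfb3 rose by 0.57 ± 0.11 and 0.95 ± 0.15 in PMLGH against Model (edgeR adjusted p = 0.0016 and 2.9e-04). In GelMA against Model these 2 ligands rose by 0.64 ± 0.11 and 0.92 ± 0.15 (edgeR adjusted p = 8.5e-04 and 5.2e-04). Tgfbr1, the receptor kinase of Tgfb1, rose by 0.67 ± 0.07 in PMLGH against Model.

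**Figure D5:**
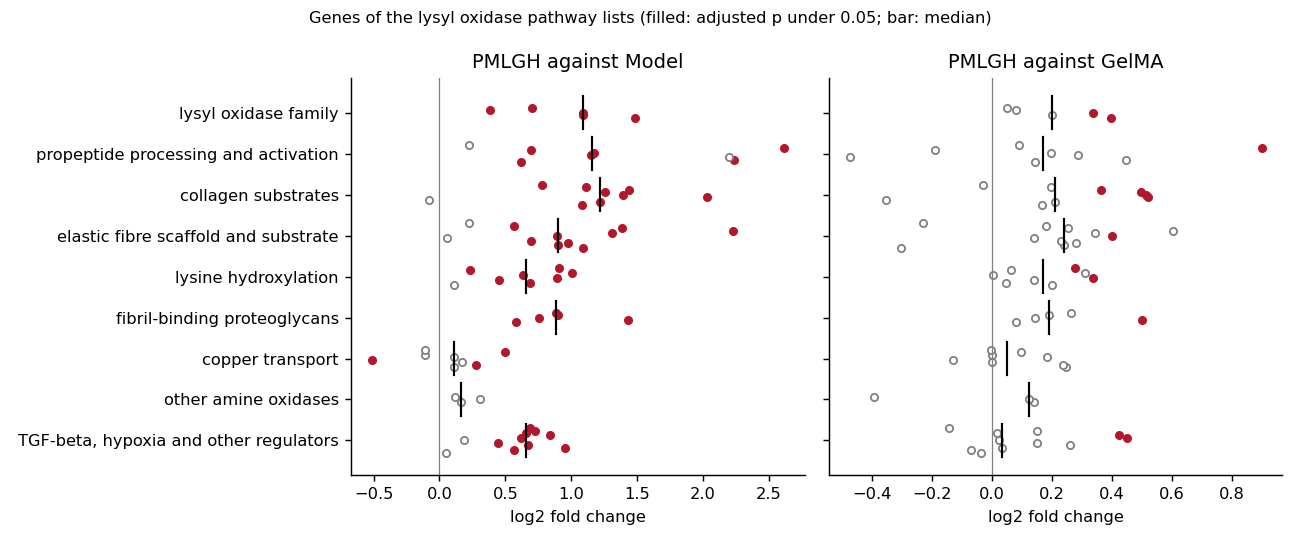
Log2 fold change (x axis) of each tested gene of the family and of the 8 lists (rows) in PMLGH against Model and in PMLGH against GelMA. Filled points have an edgeR adjusted p under 0.05 and black bars are list medians; copper transport and other amine oxidases lie nearest to 0 in PMLGH against Model.

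Against Model, most markers of osteoblasts, fibroblasts, tendon and smooth muscle rose, as the family did. In PMLGH against Model, 6 of 7 osteoblast, 6 of 6 fibroblast and periosteum, 2 of 3 tendon and 5 of 5 smooth muscle markers rose. In GelMA against Model, 7 osteoblast, 6 fibroblast, 2 tendon and 5 smooth muscle markers rose. Of all tested genes, 15.7% were called higher in PMLGH against Model and 12.7% in GelMA against Model. The fibroblast list summed to 310 to 352 CPM in PMLGH, 272 to 315 CPM in GelMA and 179 to 192 CPM in Model, with Tcf21 at 0 in GelMA and Model. Smooth muscle markers summed to 238 to 239 CPM in PMLGH, 230 to 255 CPM in GelMA and 70.6 to 100.4 CPM in Model. Tendon markers summed to 10.0 to 13.1 CPM in PMLGH, 7.68 to 9.75 CPM in GelMA and 3.04 to 5.55 CPM in Model. In PMLGH against GelMA 1 fibroblast marker rose. Of smooth muscle markers 1, Tagln, rose (0.36 ± 0.08, edgeR adjusted p = 0.027). Another, Des, fell (-1.08 ± 0.13, edgeR adjusted p = 2.15e-04), and 3 did not pass. The similar smooth muscle sums of PMLGH and GelMA therefore hold changes in opposite directions. Des moved in the direction of the 6 skeletal muscle markers, whose median was -1.44 in PMLGH against GelMA. No osteoblast marker rose there, and Dmp1 fell (-1.11 ± 0.16, edgeR adjusted p = 0.0010). Osteoblast sums were 2287 to 2837 CPM in PMLGH, below and clear of 2956 to 3035 CPM in GelMA. Dmp1 weighs heavily in this gap, with means of 382 CPM in PMLGH and 822 CPM in GelMA. The other 6 osteoblast markers did not pass there. Among them, Ibsp averaged 1338 CPM in PMLGH and 1228 CPM in GelMA, and Bglap 437 and 517 CPM. The lower sum therefore does not stand for the osteoblast list as a whole. Of all tested genes, 1.8% were called higher and 1.64% lower in PMLGH against GelMA. Of 6 macrophage markers 4 rose there, with sums of 1119 to 1155 CPM in PMLGH, against 893 to 970 CPM in GelMA. The part of these cells in the values of the family was not tested.

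All 6 erythroid markers fell in both comparisons with Model (sums of 6490 to 7172 CPM in PMLGH, 6710 to 7279 CPM in GelMA and 8118 to 10034 CPM in Model). Skeletal muscle markers rose in PMLGH (4 of 6) and in GelMA (6 of 6) against Model, and all 6 fell in PMLGH against GelMA, with sums of 564 to 821 CPM in PMLGH, 1744 to 2147 CPM in GelMA and 356 to 548 CPM in Model. In PMLGH against Model 4 of 5 osteoclast, 5 of 6 macrophage, 3 of 6 endothelial and 1 of 6 chondrocyte markers rose, 2 of 5 adipocyte markers fell, and none of 5 neutrophil markers passed in edgeR, with 1 at an unadjusted p under 0.05 and none called by DESeq2 or limma. With 15.7% of all tested genes called higher and 11.9% lower, the chondrocyte count is at the background. In GelMA against Model 3 of 5 osteoclast, 2 of 6 macrophage, 3 of 6 endothelial and 2 of 6 chondrocyte markers rose, and 3 of 5 adipocyte markers fell. The shares of all tested genes in that comparison were 12.7% called higher and 9.88% lower. Within PMLGH and GelMA, the libraries with the least Lox, PMLGH 4 and GelMA 2, had the largest globin shares of their groups, at 8.07% and 8.03% of counts. The others had 6.87% and 6.93% in PMLGH and 7.23% and 7.09% in GelMA. In Model the shares were 9.54% to 10.1%, and Model 5, with the least Lox, did not have the largest. With globin genes removed, Lox had a log2 fold change of 0.39 in PMLGH against GelMA (edgeR adjusted p = 0.0059). That refit leaves the other erythroid RNA in place, and the part of blood content in the Lox values was not tested.

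Upstream sequence was read for the 3 members with an entry in the RefSeq promoter table of GRCr8, to show what lies before members that rose together. Lox and Loxl2 did not match. The stretches below lie outside the annotated bounds of any gene, within 250 bases before the start, and capitals mark the motifs found, searched on both strands.
Loxl1 (chr8:67612225-67612474, minus strand): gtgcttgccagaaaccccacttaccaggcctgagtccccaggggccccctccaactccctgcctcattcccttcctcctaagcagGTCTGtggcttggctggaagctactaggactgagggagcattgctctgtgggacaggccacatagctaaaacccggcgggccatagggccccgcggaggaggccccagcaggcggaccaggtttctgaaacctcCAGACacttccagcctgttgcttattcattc
Loxl3 (chr4:117098252-117098357, plus strand): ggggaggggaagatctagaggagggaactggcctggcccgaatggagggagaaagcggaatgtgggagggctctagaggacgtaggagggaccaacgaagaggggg
Loxl4 (chr1:251365641-251365827, minus strand): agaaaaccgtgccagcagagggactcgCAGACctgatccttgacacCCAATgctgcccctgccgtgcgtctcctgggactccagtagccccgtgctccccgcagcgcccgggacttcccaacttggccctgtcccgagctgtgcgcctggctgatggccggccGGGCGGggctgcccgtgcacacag

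The first motif searched was TATAAA, the TATA box, and the next was the box CCAAT. Then came ACGTG, the core of the hypoxia response element, and CAGAC, a core bound by Smad proteins, which reads GTCTG on the other strand. The last were TGANTCA for AP-1 and, for Sp factors, the box GGGCGG. No match overlapped another in the printed stretches. In the whole 250 bases, Loxl1 held the Smad core 165 and 31 bases before the start. Loxl4 held it 223 bases before the start, with the CCAAT box at 204 and the Sp box at 87, 54 and 13 bases. The Sp boxes at 54 and 13 lie past the printed 187 bases, within the annotated bounds of Loxl4 itself. Loxl3 held none of the 6 motifs. Of 33365 promoters of the same length, 43% held the Smad core, 34% the CCAAT box and 30.5% the Sp box, so these matches are common. The shares were 16.6% for the hypoxia core, 12.9% for the TATA box and 6.35% for AP-1, none of which was found in the 3 windows.

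The genes most like each member were those with the smallest root mean square difference in log2 CPM over the 9 libraries, each profile centred on its own mean, among 14210 genes of at least 1 CPM outside the family. Since the groups set most of the profile, this describes levels over groups and libraries together. For Lox they were Gxylt2, a xylosyltransferase (0.0666), Col5a1 (0.0705), the collagen-binding integrin chain Itga11 (0.0811) and Col12a1, a collagen on fibril surfaces (0.0933). For Loxl1 they were the collagen-binding receptor Antxr1 (0.0702), Nrep (0.0727), the growth factor Clec11a, which acts on bone in mice (0.0759) and Col6a2 (0.0815). Loxl2 was nearest to Col6a1 (0.0540), the protease inhibitor Timp2 (0.0684), the prolyl isomerase Ppic (0.0705) and the laminin chain Lama4 (0.0728). Collagens thus stood among the nearest 4 genes of these 3 members.

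Loxl3 was nearest to the vitamin C transporter Slc23a2 (0.0474), Erlec1 (0.0598), Adgrl2 (0.0603) and Mipep (0.0625), and genes near Loxl4 included the chondroitin synthesis factor Chpf (0.0569), the osteocyte peptidase Phex (0.0617) and Pik3r3 (0.0669). No collagen was among these. Among candidates with a range of at least 1 on the log2 scale, the nearest were the same for Lox, Loxl1 and Loxl2. For Loxl3, whose own range was 0.54, they were Arhgap42, Alcam, Ocln and Ednrb at 0.142 to 0.169, and for Loxl4 they were Chpf, Col22a1, Bambi and Bcat1 at 0.0569 to 0.0827. Within the family, Loxl1 and Loxl2 were most alike (0.114), and 27 genes were closer to Loxl1 than Loxl2 was. Lox and Loxl3 were least alike (0.466), with 1601 genes closer to Lox.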

How the data were processed

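Raw counts by gene symbol were deposited by the authors with no scaling, and the deposited FPKM table holds FPKM computed by the authors for the same genes. For all 22798 genes with a count, FPKM equals the count over the library total and a fixed gene length (relative tolerance 1e-04). Both tables have 9 sample columns, and 0 other sample columns were left unused. DESeq2 and R 3.2.0 appear, with no role, per the submitters' processing notes. The sources used here do not give the aligner, counter, genome build or use of strand.

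Genes kept by filterByExpr (16816) were scaled by TMM and fitted with edgeR 4.0.16 in R 4.3.3, with 1 mean per group over all 9 libraries (6 residual degrees of freedom), quasi-likelihood tests, and Benjamini-Hochberg adjustment within each comparison. All tests were two-sided. After a log2 fold change, ± gives an approximate SE, taken as the absolute change over the square root of F. Totals were 34571478 to 37166383 counts. Counting error lay below the fitted spread between libraries, whose biological coefficient of variation was 6.49% to 7.81% for the 5 genes. Within Model, the observed coefficient of variation of CPM ran from 2.49% for Lox to 9.75% for Loxl4. Alternatives were other scalings, no filter on low counts, removal of globin genes, DESeq2 1.42.0, limma 3.58.1 on log2(FPKM + 1) and log2(FPKM + 0.1), the compared groups alone, a replicate block, 0.5 counts added to the ratios, and each library left out. The main edgeR fit was tested on simulated counts for PMLGH against Model, and the exact permutation test on made-up values with a known shift. The alternatives were not tested in that way.

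The members and the gene lists (8 of the pathway, 12 of cell markers) were chosen with earlier results of these data known. Besides the members, the rule named the 4 genes most like each, up to 4 genes per pathway list of smallest p in PMLGH against Model and up to 2 in PMLGH against GelMA, and genes that went against their list. One gene that the rule named is not reported here. Eln is named for its function, Htra2 and Dok1 for their position, and Tgfb2 and Tgfb3 as relatives of Tgfb1, after their values were seen. The fold changes of Col1a1, Tgfb2 and Tgfb3 were not recalculated under the alternatives.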

Additional observations from a re-analysis of the deposited data

How the results depend on the processing

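In PMLGH against Model, all 5 genes stayed called in every one of 17 alternatives, and in GelMA against Model all did except Loxl3, whose log2 fold change was 0.25 to 0.32 when 1 library was left out. In PMLGH against GelMA, Lox had 0.35 and Loxl2 0.29 in limma on log2(FPKM + 1), and 0.36 and 0.31 on log2(FPKM + 0.1), none past the threshold. With 1 library left out, Lox had 0.33 to 0.49 and Loxl2 0.26 to 0.37. The 578 genes called in PMLGH against GelMA became 909 with DESeq2, 384 with limma on log2(FPKM + 0.1), 1059 in a fit of those groups alone, and 303 to 1050 with 1 library left out. The 11 pathway genes called higher there became 19 in the fit of those groups alone and 6 to 18 with 1 library left out. The count of passing ratios between members, 8 of 10, became 3 to 6 with 1 library left out. Of the other named pathway genes, recalculated the same way after seeing the data, Ccn2, Col5a1, Fbln5, Fkbp10 and Serpinh1 lost their calls in PMLGH against GelMA under some alternatives, as did Slc31a2 in PMLGH against Model. The causes of these shifts were not tested. No gene of the family changed direction, and no scaling moved the median of all genes by over 0.1 on the log2 scale. Every member had at least 690 counts in each library, so the spread between 3 libraries a group, more than depth, limits what can be told apart.

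PMLGH and GelMA share the replicate numbers 2, 3 and 4, but the deviations of same-numbered libraries correlated at -0.001, 0.067 and -0.026, so the numbers were not taken as pairs. With the replicate block, fitted on the 6 PMLGH and GelMA libraries, 1037 genes were called, with 22 pathway genes higher and 1 lower. Those groups alone without the block gave 1059 genes, with 19 pathway genes higher and 1 lower. With the block Lox had 0.39 and Loxl2 0.33, and no call of the family changed. Not every library correlated best with its own number. For the comparisons with Model no such fit could be made, since Model shares only number 2 with PMLGH and GelMA.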
